A study of Homo sapiens with 6 samples.

Results

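The 10 miRBase entries described here are those whose listed sequence is thought to coincide with ribosomal RNA (rRNA), small nuclear RNA (snRNA) or another abundant non-coding RNA, and their levels were compared in small RNA libraries of a human Müller glial cell line and its extracellular vesicles (EV). They were chosen by name, as the rows of the deposited count tables called hsa-miR-7641, hsa-miR-4497, hsa-miR-4516, hsa-miR-1246, hsa-miR-6087, hsa-miR-6126, hsa-miR-663a, hsa-miR-4532, hsa-miR-3687 and hsa-miR-3656. All 10 were found among the 2576 mature miRNAs that each table lists. The libraries came from 3 samples of whole MIO-M1 cells, with passage numbers 22, 24 and 26 for replicates 1, 2 and 3. The other 3 held EV secreted by these cells, with passage numbers 23, 25 and 27 for replicates 1, 2 and 3. MIO-M1 is a single established line of wild-type genotype, so the samples are cultures of 1 line at different passages and not separate donors. Both groups were grown in DMEM with fetal calf serum, and EV were collected from medium without serum by the labels or depleted of vesicles by the methods, for a time and after a number of washes on which these sources differ. By the methods, intact EV were treated with RNase A before extraction, a step not named for the cell pellets. RNA was extracted with a kit for total RNA from cell pellets and with a kit for exosome RNA from EV, so kit and group cannot be told apart.

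An authentic miRNA is cut from a hairpin precursor by Drosha and Dicer and is loaded into an Argonaute protein, which it guides to target transcripts by its seed. rRNA and snRNA are not made in this way. The 5S rRNA is transcribed by RNA polymerase III, the other rRNAs of the cytoplasmic ribosome are cut from a long polymerase I precursor that also holds spacers, and U2 snRNA is part of the spliceosome. Because these RNAs are very abundant, their breakdown products enter small RNA libraries, and some entries of miRBase were registered from reads of this kind. EV are known to carry fragments of such RNAs together with miRNAs.

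RefSeq held a mature sequence, on build GRCh38.p14, for 5 of the 10 entries. They are printed so that the bases each entry names can be set beside those of other RNAs, 5′ to 3′, with the seed (bases 2 to 8) in capitals:
hsa-miR-1246: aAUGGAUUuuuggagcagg
hsa-miR-4516: gGGAGAAGggucggggc
hsa-miR-4497: cUCCGGGAcggcugggc
hsa-miR-6126: gUGAAGGCccggcggaga
hsa-miR-663a: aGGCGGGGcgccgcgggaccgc

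No seed was shared between these 5. G and C made up 82.4% of the bases of miR-4497, 76.5% of miR-4516, 72.2% of miR-6126 and 90.9% of miR-663a, and 42.1% of miR-1246. Their positions on GRCh38.p14 are chr2:176601024-176601042 on the minus strand for miR-1246, chr16:2133120-2133136 on the plus strand for miR-4516, chr12:109833350-109833366 on the plus strand for miR-4497, chr16:3485422-3485439 on the minus strand for miR-6126 and chr20:26208243-26208264 on the minus strand for miR-663a. hsa-miR-7641, hsa-miR-6087, hsa-miR-4532, hsa-miR-3687 and hsa-miR-3656 are given by name only. The positions in the deposited tables carry no build name, and for all 5 entries with a RefSeq position the start in the tables was another number, so the tables' positions were not combined with those of this build.

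The letters of miR-1246 were found whole in U2 snRNA. Among 5722 GENCODE 29 transcripts of rRNA, snRNA, snoRNA, Y RNA and related classes, searched on both strands, 19 transcripts of the U2 kind held all 19 bases on the same strand. In RNU2-1, of 191 bases, they stood at positions 94 to 112. A read of these letters therefore cannot be assigned to miR-1246 or to U2 by its sequence. The other 4 printed sequences had no match in this set on the same strand, either whole or with 1 mismatch. The set held 52 transcripts of 5S and 5.8S rRNA and 500 rRNA pseudogenes, while 18S and 28S rRNA and their spacers were not searched here. For comparison, 12 of the 2262 mature miRNAs of the tables with a RefSeq sequence outside chr8 (0.530%) were found whole on the same strand of these transcripts.

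The annotation around the precursors differed from entry to entry. In GENCODE 29 (GRCh38), MIR7641-2, 1 of the pair of loci listed for miR-7641, lies within an intron of FLVCR2 and overlaps RNA5SP387, a pseudogene of 5S rRNA, on the same strand. MIR663A lies in an exon of its own host transcript, MIR663AHG, and MIR3656 overlaps an exon of TRAPPC4 on the same strand. MIR4497, MIR4516 and MIR6126 lie opposite to TRPV4, PKD1 and NAA60, over an exon for the first and the last and over an intron for PKD1. MIR3687-1 lies on chromosome 21 in an intron of the long non-coding RNA FP671120.1. MIR1246, MIR4532, MIR6087, MIR7641-1 and MIR3687-2 overlapped no other annotated gene.

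The 10 entries were short. The tables give 8 of them a length of 17 to 19 bases, and only miR-663a with 22 and miR-3687 with 24 exceeded this. Of the other 2566 mature miRNAs listed, 232 (9.04%) had 19 bases or fewer, and the median length of all listed was 22. These 2 longer entries were also the ones with no count in EV, but a link of length with level was not tested. A short miRNA outside the list could be absent from EV too. miR-500b-5p, with 18 bases, had 15, 58 and 16 counts in whole cell replicates 1, 2 and 3 and no count in any EV library.

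The libraries held between 396025 and 3990900 counts assigned to miRNA in whole cells and between 1225541 and 3134561 in EV. Levels are given in counts per 1000000 counts of this total (CPM). For a library without a count, the upper limit was set at 3 counts, which is 7.58, 0.752 and 2.40 CPM in whole cell replicates 1, 2 and 3 and 2.45, 1.47 and 0.957 CPM in EV replicates 1, 2 and 3. This limit and the intervals below cover counting error only, since reads are not independent molecules. Low counts were much rarer in EV, where 25 to 44 miRNAs per library had 1 to 9 counts, against 298 to 541 in whole cells. In libraries of many vesicles, fewer vesicles with an RNA and less of it per vesicle cannot be told apart.

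Together the 10 entries held 11, 262 and 104 counts in whole cell replicates 1, 2 and 3, and 1253, 2112 and 1593 counts in EV replicates 1, 2 and 3. This was 27.8 CPM (95% exact Clopper-Pearson interval 13.9 to 49.7), 65.6 CPM (57.9 to 74.1) and 83.1 CPM (67.9 to 100.6) in whole cells. In EV it was 1022 CPM (967 to 1081), 1036 CPM (992 to 1081) and 508 CPM (484 to 534). The groups did not overlap, with means of 855.5 ± 300.9 CPM in EV and 58.8 ± 28.3 CPM in whole cells (SD, n = 3 in each). The entries were nevertheless a small part of the counts, at most 0.104% of any library.

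**Figure D1:**
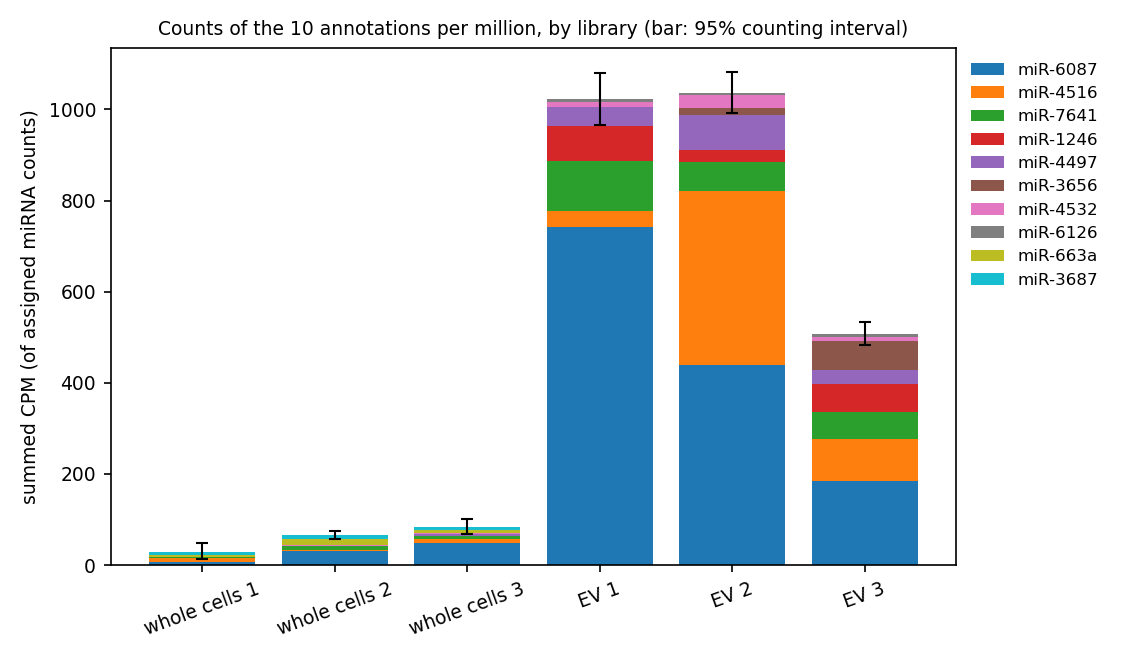
Stacked bars give the summed CPM of the 10 entries in each of the 6 libraries on a linear axis from 0, coloured by entry, and black bars give the 95% exact binomial interval of the sum. The EV bars reach 508 to 1036 CPM and the whole cell bars 27.8 to 83.1 CPM, and miR-6087 is the largest block in each EV library.

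The make-up of this sum changed from library to library. miR-6087 took 72.5%, 42.5% and 36.2% of it in EV replicates 1, 2 and 3. The next largest was miR-7641 with 10.9% in EV replicate 1, and miR-4516 with 36.7% and 18.3% in EV replicates 2 and 3. Without miR-6087, the remaining entries had a mean of 400.6 ± 170.5 CPM in EV and 29.5 ± 8.09 CPM in whole cells (SD, n = 3 in each). Of the 8 entries with counts in EV, 3 had their highest CPM in EV replicate 1, 3 in EV replicate 2 and 2 in EV replicate 3.

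Group differences were tested with edgeR's quasi-likelihood test on the 430 miRNAs with 5 CPM or more in any 3 of the 6 libraries, with the Benjamini-Hochberg adjustment over all of them. The filter kept 9 of the 10 entries and left out miR-3656. It kept miR-1246, miR-4497, miR-4532 and miR-6126 through EV libraries alone, and miR-663a and miR-3687 through whole cell libraries alone, so these 6 had to differ in order to be tested and the counts of entries below are descriptions. At the study's stricter limit, an adjusted p under 0.01 and a log2 fold change of 2.5 or more in either direction, edgeR called 0 of the entries, where it called 19 of the 430 miRNAs (4.42%) as higher and 6 (1.40%) as lower in EV. All 9 had an unadjusted p below 0.05, as had 35.8% of all miRNAs tested, and 6 of the 9 were tested only because 1 group was high. DESeq2's Wald test called 5 of the entries as higher at the same limit, beside 9.77% of all miRNAs tested, and 0 as lower, beside 6.98%.

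When the adjusted p was allowed to reach 0.05, edgeR listed 6 of the entries as higher in EV, beside 11.9% of all miRNAs tested, and 2 as lower, beside 9.77%. The higher ones were miR-6126, miR-1246, miR-6087, miR-4516, miR-7641 and miR-4532. The lower ones were miR-663a and miR-3687. miR-4497 missed this limit with an adjusted p of 0.0501 (edgeR), and miR-4532 passed it narrowly with 0.04999. Over the fits that left out a single library, between 1 and 7 entries were listed as higher at this limit, and the share of all miRNAs moved too. Without whole cell replicate 1, 2 or 3, the fits listed 2, 1 and 1 entries as higher, beside 9.53%, 5.81% and 6.28% of all miRNAs tested. Without EV replicate 1, 2 or 3, they listed 3, 4 and 7 entries, beside 11.4%, 9.53% and 12.6%. miR-663a and miR-3687 were listed as lower in each of these fits, beside 12.1%, 9.30% and 9.53% of all miRNAs without whole cell replicate 1, 2 or 3, and 16.3%, 15.8% and 12.1% without EV replicate 1, 2 or 3. The cell and EV libraries did not overlap for 9 of the 10 entries, with EV above for 7 (20.5% of all miRNAs tested) and below for 2 (27.9%). For each of these 9 the two-sided exact permutation test over libraries gave p = 0.1, the smallest that 3 against 3 allow.

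**Figure D2:**
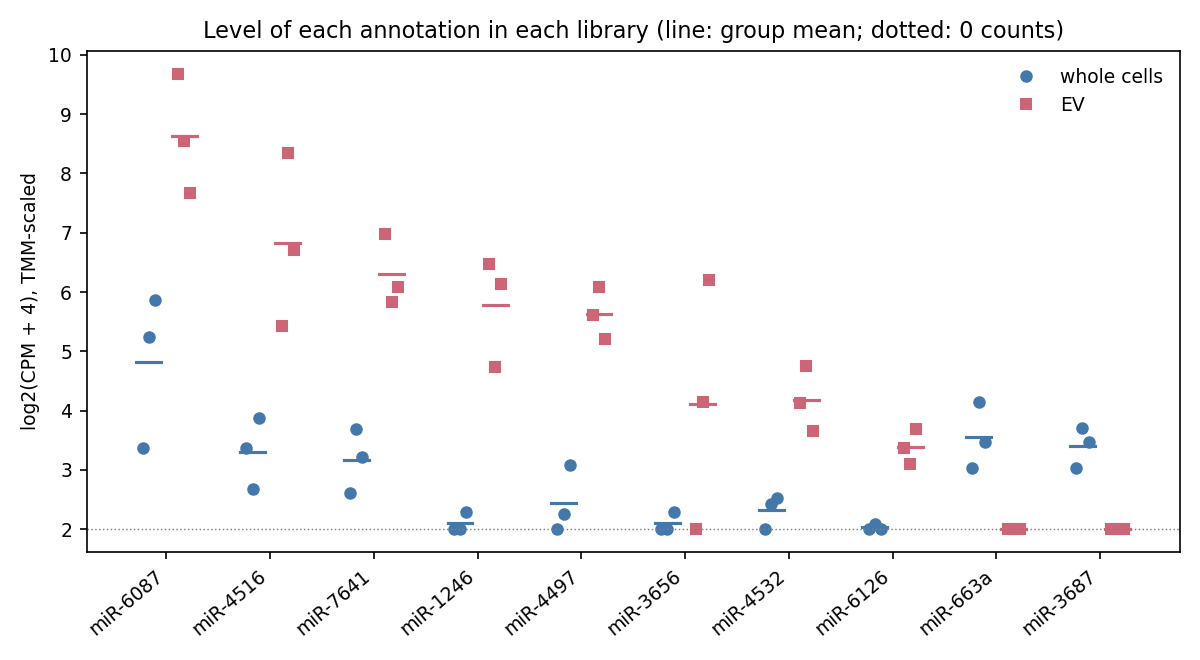
Each point is the log2(CPM + 4) of an entry in 1 library on TMM-scaled counts, circles for whole cells and squares for EV, with a line at the mean of 3 libraries and a dotted line at the value of 0 counts. Squares lie above circles for 7 entries and on the dotted line for miR-663a and miR-3687, and for miR-3656 the groups overlap.

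hsa-miR-6087 was the most abundant of the entries in both groups. It had 3, 126 and 61 counts in whole cell replicates 1, 2 and 3, and 908, 897 and 576 counts in EV replicates 1, 2 and 3. In CPM this was 7.58, 31.6 and 48.7 in whole cells and 740.9, 440.0 and 183.8 in EV, so that the lowest EV library was above the highest cell library while the EV libraries spread over 4.03 times. In edgeR its log2 fold change was 3.85 (standard error, SE, 0.93) with an adjusted p of 0.0185, and it was 3.70 with DESeq2 (adjusted p = 5.2e-05). Without EV replicate 1, its highest library, the log2 fold change was 3.07 with an adjusted p of 0.0589, and without whole cell replicate 1 it was 3.26 with 0.0328. Over all alternatives the adjusted p ran from 5.2e-05 to 0.0589. By mean CPM it ranked 100 among the 546 miRNAs with a count in EV and 265 among 1153 in whole cells. The tables place it on chromosome X from 108297774 to 108297791.

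hsa-miR-4516 had counts in every library. Its counts were 3, 9 and 12 in whole cells and 43, 776 and 292 in EV, each in the order of the replicates. The CPM was 7.58, 2.26 and 9.58 in whole cells and 35.1, 380.6 and 93.2 in EV, a spread of 10.8 times within EV, with replicate 2 far above the other libraries. The groups did not overlap, and edgeR gave a log2 fold change of 4.58 (SE 1.21) with an adjusted p of 0.0265. Without EV replicate 2 it was 3.34, with an adjusted p of 0.0566, and without whole cell replicate 3 it was 5.17, with 0.0683. The adjusted p was 0.0843 without whole cell replicate 1. Over all alternatives the adjusted p ran from 0.000313 with DESeq2 to 0.113 without whole cell replicate 2.

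hsa-miR-7641, with loci on chromosomes 11 and 14 that its count does not tell apart, had 1, 33 and 6 counts in whole cells, against 136, 129 and 184 in EV. The CPM was 2.53, 8.27 and 4.79 in whole cells and 111.0, 63.3 and 58.7 in EV. Its EV libraries lay closer together than those of miR-6087 and miR-4516, within 1.89 times. In edgeR the log2 fold change was 3.80 (SE 1.10) with an adjusted p of 0.0385, and over all alternatives the adjusted p ran from 0.00106 with DESeq2 to 0.202 without whole cell replicate 3. It also exceeded 0.05 without whole cell replicate 1 (0.0925), whole cell replicate 2 (0.183) or EV replicate 1 (0.0527), and without the filter (0.0712).

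hsa-miR-1246, the entry whose letters stand in U2, was close to absent from whole cells. It had 0, 0 and 1 counts there and 94, 55 and 193 counts in EV, or 76.7, 26.98 and 61.6 CPM in EV. With a single count in whole cells, the ratio of the pooled shares was 301.4, with a 95% counting interval from 53.7 to 11939, which covers counting error and not the spread between libraries. The adjusted p was 0.0182 with edgeR and 8.2e-05 with DESeq2, and over all alternatives it ran from 8.2e-05 to 0.117. It exceeded 0.05 without whole cell replicate 1 (0.0647), 2 (0.117) or 3 (0.0514). Of the 430 miRNAs tested, 8 had 3 counts or fewer over the whole cell libraries, and miR-1246 and miR-6126 were among them.

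hsa-miR-4497 and hsa-miR-4532 had the highest adjusted p of the 9 tested entries in edgeR, though not in DESeq2. Both passed the filter through EV libraries alone, so the test had selected for a difference. miR-4497 had 0, 3 and 5 counts in whole cells, against 50, 155 and 95 in EV, which is 0, 0.752 and 3.99 CPM against 40.8, 76.0 and 30.3 CPM. Its log2 fold change was 4.64 (standard error 1.46), and its adjusted p was 0.0501 from edgeR and 0.00416 from DESeq2, with a range over all alternatives from 0.00416 to 0.294. Without whole cell replicate 3, which held 5 of its 8 counts in whole cells, the log2 fold change was 6.20 with an adjusted p of 0.0942, and without EV replicate 3 the adjusted p was 0.0314. miR-4532 had 0, 5 and 2 counts in whole cells, against 15, 56 and 25 in EV, or 12.2, 27.5 and 7.98 CPM in EV against at most 1.60 CPM in whole cells. Its log2 fold change was 3.63 (standard error 1.14) and its adjusted p was 0.118 with DESeq2, with a range from 0.0324 to 0.289. It exceeded 0.05 without any 1 of the libraries other than EV replicate 3. In edgeR it was also above 0.05 without the filter (0.184) and with a filter of 10 counts in 3 libraries (0.142). The same held with libraries thinned to the smallest (0.121) and with TMM factors computed without these and other entries of non-coding RNA (0.0540). miR-4497 and miR-4532 were both highest in EV replicate 2, as was miR-4516.

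hsa-miR-6126 had few counts in any library, with 0, 1 and 0 in whole cells and 7, 11 and 26 in EV. The EV values of 5.71, 5.40 and 8.29 CPM were the closest together among the 8 entries with counts in EV, within 1.54 times. The ratio of the pooled shares was 38.8, with a 95% counting interval from 6.61 to 1566. The tools differed here, with an adjusted p of 0.0117 from edgeR and 0.227 from DESeq2, and the range over all alternatives was 0.00978 to 0.227. It exceeded 0.05 without whole cell replicate 2 (0.0614) or 3 (0.0791), and also in edgeR without the filter (0.110).

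The pair that was lower in EV consisted of hsa-miR-663a and hsa-miR-3687. miR-663a had 2, 51 and 8 counts in whole cells, or 5.05, 12.8 and 6.39 CPM, and 0 in all 3 EV libraries. miR-3687 is thought to come from the spacer of the rRNA precursor, which was not searched here. It had 2, 34 and 8 counts, or 5.05, 8.52 and 6.39 CPM, and also 0 in all EV libraries. Against a limit of 3 counts in each EV library, the observed whole cell mean CPM was 4.97 times the mean EV limit for miR-663a and 4.09 times for miR-3687. These ratios leave out the error of the whole cell mean. Both entries passed the filter through whole cells alone, with 2 counts in replicate 1. The adjusted p was 0.0114 for miR-663a and 0.0107 for miR-3687 with edgeR, and 0.0810 and 0.123 with DESeq2, and over all alternatives it ran from 0.00923 to 0.0810 and from 0.00809 to 0.123. At these levels a count of 0 in EV was common, since 22 of the 61 other miRNAs with a mean of 5 to 10 CPM in whole cells (36.1%) were also at 0 in every EV library. The seed of miR-663a is shared by miR-1908-5p, which did not pass the filter and had no count in EV and 0, 22 and 16 in whole cells.

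hsa-miR-3656 was not tested. It had a single count in whole cells, in replicate 3, and a total of 235 counts in EV, with 0 in replicate 1, 33 in replicate 2 and the rest in replicate 3. This was 0, 16.2 and 64.4 CPM in EV. The groups overlapped at 0, because EV replicate 1 held none (two-sided exact permutation test, p = 0.4). The ratio of pooled shares was 207.1, with a 95% counting interval from 36.8 to 8214, and it rests on EV replicates 2 and 3.

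**Figure D3:**
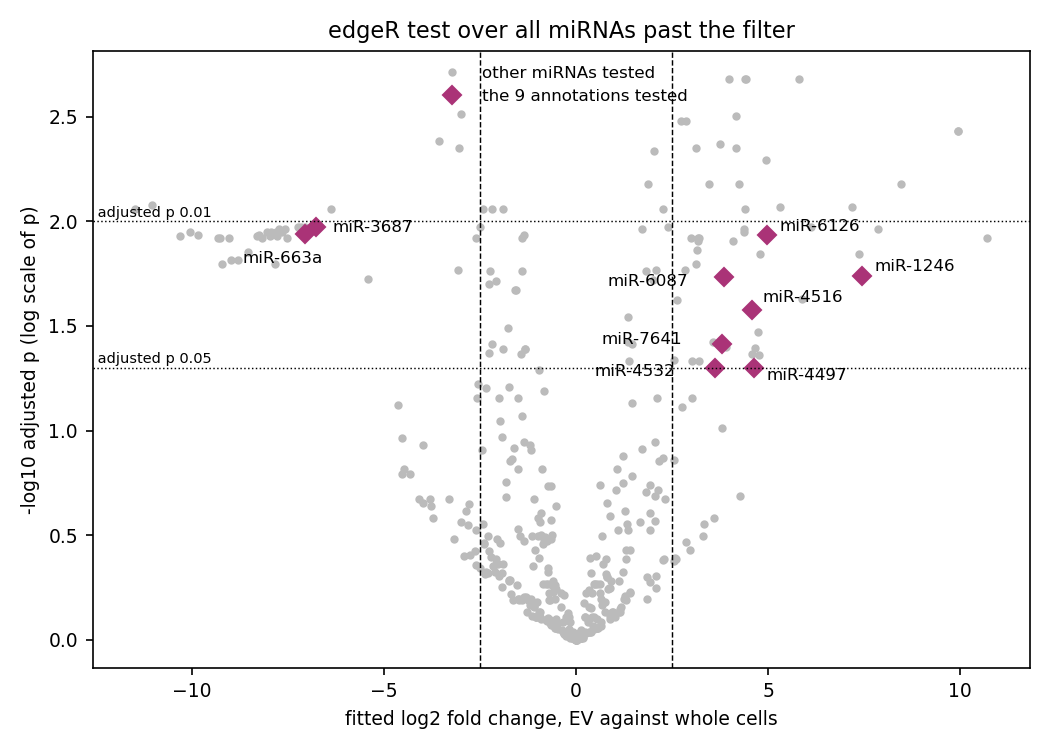
Each point is 1 of the 430 miRNAs tested, with the fitted log2 fold change in EV against whole cells on the horizontal axis and the negative log10 of edgeR's adjusted p on the vertical axis. Diamonds mark the 9 tested entries, all outside the dashed fold limits of 2.5 and all below the upper dotted line at 0.01, and the fitted positions of miR-1246, miR-6126, miR-663a and miR-3687 depend on the prior count because 1 group was at or near 0.

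For the whole set of 430 miRNAs the fitted log2 fold change had a median of -0.23, with quartiles at -1.72 and 1.29. The scaling moved this median between -0.41, with RLE factors or DESeq2, and -0.22, with library totals. Over these 6 fits the value of miR-6087 ran from 3.70 to 3.92, that of miR-4516 from 4.36 to 4.74 and that of miR-7641 from 3.61 to 3.86.

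Levels of different entries were compared as CPM per base of the mature length. In EV the order was miR-6087 (25.3 ± 15.5, SD, n = 3), miR-4516 (9.98 ± 10.9), miR-7641 (4.09 ± 1.52), miR-1246 (2.90 ± 1.34), miR-4497 (2.89 ± 1.41), miR-3656 (1.58 ± 1.97), miR-4532 (0.935 ± 0.603) and miR-6126 (0.359 ± 0.0884), with miR-663a and miR-3687 at 0. Neighbours in this order overlapped in their EV libraries down to miR-4532, and only miR-6126 lay wholly below its neighbour and above the entries at 0. In whole cells the order was miR-6087 (1.63 ± 1.15), miR-4516 (0.381 ± 0.223), miR-663a (0.367 ± 0.188), miR-3687 (0.277 ± 0.0729) and miR-7641 (0.273 ± 0.152). The other 5 entries were at 0.0930 or lower, and every pair of neighbours overlapped.

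**Figure D4:**
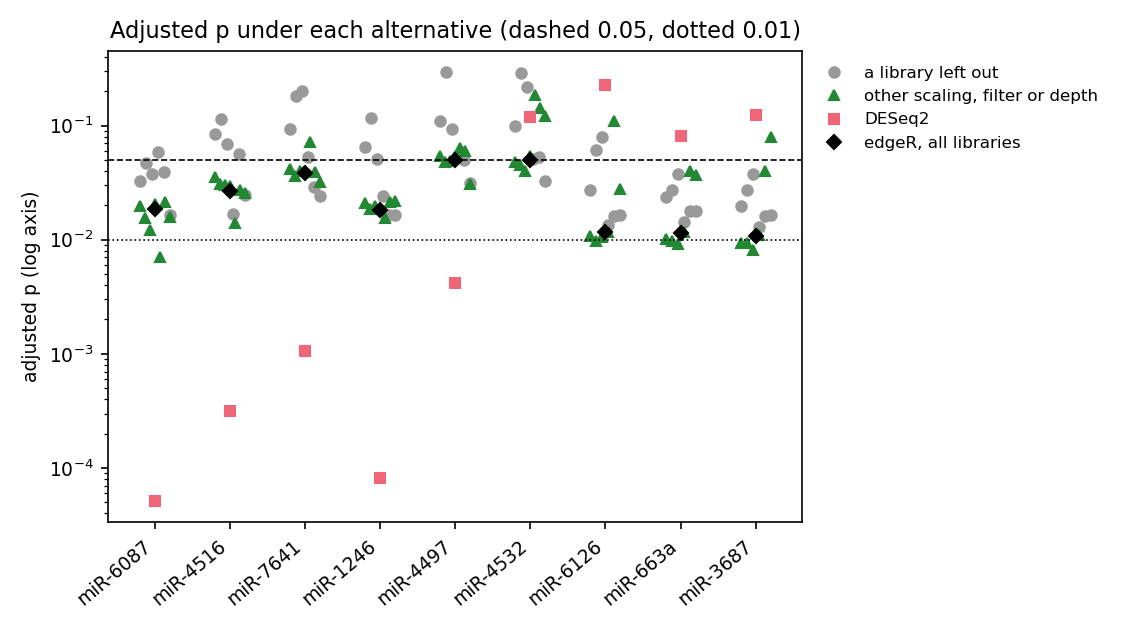
The adjusted p of each tested entry is shown on a log axis for edgeR with all libraries (diamonds), DESeq2 (squares), other scalings, filters or depths (triangles) and fits with 1 library left out (circles), with limits at 0.05 (dashed) and 0.01 (dotted). DESeq2 lies below 0.01 for miR-6087, miR-4516, miR-7641, miR-1246 and miR-4497 and above 0.05 for the other 4 entries.

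Another 23 entries known from non-coding RNA were read in the same way. They were 6 entries of rRNA regions, 10 of small nucleolar RNA (snoRNA), 5 of transfer RNA (tRNA) and 2 of mitochondrial RNA, and 20 of the 23 had a count. Only 5 passed the filter. Of these, edgeR called 0 in either direction at the stricter limit, beside 4.42% and 1.40% of all miRNAs tested as higher and lower, and DESeq2 called 1 as lower, beside 6.98%. The median log2 fold change of these 5 was -0.26, beside -0.23 for all miRNAs tested. EV and whole cell libraries overlapped for 19 of the 23, beside 51.6% of the miRNAs tested, but 18 of the 23 were too low to be tested. The 19 include miR-663b, miR-7975 and miR-1973, which had no count in any library, so that their overlap was fixed in advance.

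Of the snoRNA entries, miR-664a-5p had the most counts, with 27, 518 and 175 in whole cells and 189, 655 and 1517 in EV. In edgeR this gave a log2 difference of 1.45 (SE 0.66) with an adjusted p of 0.165. The other arm, miR-664a-3p, had 25, 115 and 26 counts in whole cells, against 1, 57 and 0 in EV. The groups overlapped, and the fitted log2 difference was -2.10 (adjusted p = 0.476 from edgeR). For miR-1291 it was 0.51 (adjusted p = 0.883) and for miR-664b-5p -0.26 (adjusted p = 0.954), and each had counts in a single EV library.

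The tRNA entry miR-1260b had 16, 658 and 237 counts in whole cells, against 18, 6 and 0 in EV. All EV libraries were below the lowest whole cell library, and edgeR gave a log2 difference of -4.54 (SE 1.77) with an adjusted p of 0.109, against 0.00416 from DESeq2. The 5 tRNA entries together came to 42.9, 168.6 and 199.7 CPM in whole cells and 14.7, 3.92 and 0.957 CPM in EV.

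None of the 6 rRNA entries of this further list passed the filter. They came to 2.53, 3.01 and 7.99 CPM in whole cells and to 53.0, 121.2 and 0.319 CPM in EV, so that EV replicate 3 lay below the whole cell libraries. miR-3648, listed close to miR-3687 on the same strand of chromosome 21, had 1, 7 and 3 counts in whole cells, against 6, 119 and 0 in EV. This neighbour of miR-3687 was therefore present in EV replicates 1 and 2, where miR-3687 had no count.

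The miRNA whose profile over the 6 libraries was most like that of miR-6087 was miR-1468-5p, with a Pearson's r of 0.994 for log2(CPM + 4), followed by miR-203a with 0.980 and miR-320c with 0.974. These are descriptions over 6 libraries that fall into 2 groups.

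Of the marker miRNAs used to check the labels, all but miR-223-3p passed the filter. At the stricter limit edgeR called 0 of 6 for Müller glia. It called 2 of the 5 tested for blood and serum, miR-142-3p and miR-126-3p, both higher in EV. Of all miRNAs tested, 4.42% were called higher and 1.40% lower. DESeq2 also called miR-451a (adjusted p = 3.1e-07) and miR-122-5p (6.0e-06) as higher, beside 9.77% of all miRNAs tested. It called miR-181a-5p (1.5e-05) as lower, beside 6.98%. In edgeR the adjusted p of miR-451a, miR-122-5p and miR-181a-5p was 0.0120, 0.0124 and 0.0121. The 6 miRNAs taken as markers of Müller glia include miR-204-5p, miR-9-5p and miR-125b-5p, and had counts in all libraries. Their sum was between 152007 and 161311 CPM in whole cells and between 81756 and 110653 CPM in EV. This list was split. EV lay below whole cells for 3, miR-125b-5p (mean 110495 CPM in whole cells, 49536 in EV), miR-204-5p and miR-181a-5p. The groups overlapped for the other 3, whose means were higher in EV. In whole cells and EV these were 3677 and 8138 CPM for miR-99a-5p, 7002 and 13408 for miR-100-5p, and 9383 and 18155 for miR-9-5p. The 6 taken as markers of blood and serum came to 265.1 to 1204 CPM in whole cells and 2144 to 3002 CPM in EV. Much of this sum was miR-486-5p, with 164.1, 875.2 and 1161 CPM in whole cells and 1217, 1711 and 1197 CPM in EV. Its log2 fold change was 0.78, with an adjusted p of 0.487 from edgeR. For 5 of the 6 markers of blood and serum, miR-486-5p among them, EV lay above whole cells, beside 20.5% of all miRNAs tested. In this list, miR-451a had a count of 0 in every whole cell library, and miR-223-3p, a marker of myeloid cells, was at 0 in EV replicate 3. Thus 5 of the 6 blood and serum miRNAs and 7 of the 10 entries were higher in the EV libraries. The part of blood and serum RNA in the levels of the entries was not tested.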

How the data were processed

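Small RNA libraries of whole MIO-M1 cells and of their EV (3 each) were made with the QIAseq miRNA kit. The authors deposited raw counts of reads per mature miRNA, summarised with featureCounts 1.5.0-p1 (strand setting 1) on miRBase release 20, per the file headers, which also name Bowtie 1 where the methods and labels name Bowtie 2. No genome build is named, and no step that removes copies of a starting molecule is stated. Samples were grouped by the fraction named in their labels. The total count per library, given with the results, sets the precision.

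CPM used the column total of each table. The miRNAs that had 5 CPM or more in any 3 of the 6 libraries were tested with edgeR 4.0.16 (TMM, quasi-likelihood, Benjamini-Hochberg) in R 4.3.3, at the limits of the study, an adjusted p under 0.01 and a log2 fold change of 2.5 or more in either direction. Standard errors are the log2 fold change divided by the root of F. DESeq2 1.42.0 was the main alternative. Both were run on simulated data, with a smaller spread between libraries than here and with the spread of these data. A set outcome was required only of edgeR at the smaller spread, and no outcome at the spread of these data is given here. Log2 values used a pseudocount of 4. Nothing in the labels says that samples were separate experiments beyond their passages, so p-values measure the spread between these samples. The members and lists were chosen with earlier results of these data known. All 10 entries were named, together with the further entries past the filter and the 3 miRNAs most like the leading entry. Mature sequences came from RefSeq (GRCh38.p14) and transcripts from GENCODE 29. Alternatives covered the tool, scaling, filter, depth, limit, denominator and each library left out, and the limit of 0.05 under each of these was added after the data had been seen. Figures used matplotlib 3.10.9 in Python 3.11.15.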

Additional observations from a re-analysis of the deposited data

How the results depend on the processing

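Of the 123 values that other fits gave for the 9 tested entries, 0 changed direction, which is no sign of stability because their groups do not overlap. At an adjusted p below 0.01 and a log2 fold change of at least 2.5 the number of entries called depended on the setting. DESeq2 called 5 as higher, library totals called 1 as higher and 2 as lower, upper-quartile factors called 2 as lower, RLE factors called 1 as lower, and testing without the filter called 1 as higher. With an adjusted p below 0.05 the numbers were 6 and 2. At that limit 0 were lower with DESeq2, 1 with libraries thinned to the smallest and 0 with a filter of 10 counts in 3 libraries, which no longer tests miR-663a and miR-3687. With each library left out in turn, between 1 and 7 entries were higher and 2 were lower at that limit, and 0 at the stricter limit.

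Over all miRNAs, DESeq2 called 42 higher and 30 lower, and at an adjusted p below 0.05 edgeR called 51 and 42. The number lower was 10 with RLE factors, 16 with library totals, 18 with upper-quartile factors and 22 without the filter. With each library left out it ran from 0 to 9 for lower and from 0 to 22 for higher, with 0 in both directions without whole cell replicate 3 or EV replicate 2. Of the further entries 1 was lower with DESeq2 and 1 without the filter. The cause of these changes was not tested. With TMM-scaled totals the summed CPM of the entries had means of 62.0 in whole cells and 850.4 in EV, a move smaller than the spread between replicates. The moves were also smaller with totals without the entries and without each library, but these 2 outcomes were fixed in advance. Leaving out 1 of 3 libraries always moves a mean by less than that spread, and the entries are too small a part of each total to change it. No paired analysis was possible because the labels give the groups no shared replicate number: their passages differ, and the numbers 1 to 3 only name the libraries. Low counts limit the precision in whole cell replicate 1, where 2 counts are 5.05 CPM.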
